A study of Mus musculus with 18 samples.

Results

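The 36 genes described here carry glucose through the mouse oocyte: 4 transporters, 9 genes of upper and 7 of lower glycolysis, 7 of the pyruvate dehydrogenase step, 5 of glycogen metabolism and 4 of the pentose phosphate pathway. They were found by gene symbol among the 28252 genes with TPM values, read counts divided by gene length and scaled to a common total in each library, and every one of the 36 was present. The set was chosen by the read counts of *Gbe1* and *Hk2*, which were higher in metaphase II (MII) oocytes grown *in vitro*, so the MII comparison below is a description of these libraries. Calls in it are counted beside those over all genes, and nothing is read from them for the members. The other 34 members were added as genes of the same pathways.

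RNA sequencing had been carried out on oocytes of C57Bl/6j x CBA/J mice in 6 groups of 3 libraries, 18 in all. Oocytes of primordial and of primary follicles were cut out by laser capture microdissection (LCM), either from ovaries of 14-day-old mice that were not cultured (*in vivo*) or from ovaries of 7-day-old mice kept for 7 days in a medium with serum, insulin, transferrin, selenium and follicle-stimulating hormone (*in vitro*). MII oocytes were pooled 10 to a library, and came either from adult mice given gonadotropins (*in vivo*) or from secondary follicles of cultured ovaries, grown 12 further days in alginate and brought to ovulation with human chorionic gonadotropin (*in vitro*). Captured oocytes of a stage were pooled across caps, and nothing in the labels says that the libraries of a group came from separate animals or cultures, so p-values measure only the spread between these libraries, which may be technical. The LCM libraries were made with a capture of coding exons and the MII libraries with Smart-seq II, so stage and library preparation cannot be told apart between them and no test was made across that line. In these bulk samples, fewer cells of a type and less RNA per cell cannot be told apart.

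Oocytes are known for using little glucose themselves: the surrounding granulosa and cumulus cells break it down and hand over pyruvate, which the oocyte oxidises in its mitochondria. Glycolysis runs from glucose uptake and phosphorylation by hexokinase through phosphofructokinase, its main control point, to pyruvate, which lactate dehydrogenase interconverts with lactate. Glucose 6-phosphate can instead be stored as glycogen, a branched polymer, or enter the pentose phosphate pathway, which yields NADPH for glutathione reduction and ribose for nucleotides and is known to be active in growing oocytes.

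The promoters of 4 members are shown because *Gbe1* and *Hk2* set the choice of the genes, and *Ldha* and *Ldhb* encode the subunits of 1 enzyme, of which *Ldhb* was by far the more abundant in MII oocytes. Each line holds 250 bases before and 50 after a transcription start from RefSeq (GRCm38.p6), 5′ to 3′ on the gene's own strand. Capitals mark ACGTG or GCGTG on either strand, the core of the hypoxia response element bound by hypoxia-inducible factors, which are known regulators of many glycolytic genes. In the annotation (GRCm38) *Gbe1* spans chr16:70313949-70569716 and *Hk2* chr6:82725025-82774454, both protein-coding genes. The window of *Gbe1* lies at chr16:70313699-70313998 on the plus strand, *Hk2* at chr6:82774405-82774704 on the minus strand, *Ldhb* at chr6:142507908-142508207 on the minus strand, and the *Ldha* start shown, 1 of 2 in RefSeq, at chr7:46845554-46845853 on the plus strand.
Gbe1: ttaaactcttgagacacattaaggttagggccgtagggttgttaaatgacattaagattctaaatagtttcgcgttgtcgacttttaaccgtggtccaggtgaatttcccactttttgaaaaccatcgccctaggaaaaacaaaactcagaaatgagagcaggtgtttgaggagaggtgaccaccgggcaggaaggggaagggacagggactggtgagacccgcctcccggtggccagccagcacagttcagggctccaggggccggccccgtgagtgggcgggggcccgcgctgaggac
Hk2: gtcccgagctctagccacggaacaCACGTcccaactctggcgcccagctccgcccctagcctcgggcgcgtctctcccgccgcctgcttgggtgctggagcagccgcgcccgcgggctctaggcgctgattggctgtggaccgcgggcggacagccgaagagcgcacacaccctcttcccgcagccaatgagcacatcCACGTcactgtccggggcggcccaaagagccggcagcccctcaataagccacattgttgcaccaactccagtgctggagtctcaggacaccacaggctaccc
Ldha: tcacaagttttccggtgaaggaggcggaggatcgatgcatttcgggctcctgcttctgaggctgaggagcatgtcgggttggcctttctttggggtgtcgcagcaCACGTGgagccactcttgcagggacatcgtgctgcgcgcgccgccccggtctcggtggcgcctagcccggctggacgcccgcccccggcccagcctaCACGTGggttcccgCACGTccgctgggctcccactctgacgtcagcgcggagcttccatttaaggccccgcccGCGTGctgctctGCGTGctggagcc
Ldhb: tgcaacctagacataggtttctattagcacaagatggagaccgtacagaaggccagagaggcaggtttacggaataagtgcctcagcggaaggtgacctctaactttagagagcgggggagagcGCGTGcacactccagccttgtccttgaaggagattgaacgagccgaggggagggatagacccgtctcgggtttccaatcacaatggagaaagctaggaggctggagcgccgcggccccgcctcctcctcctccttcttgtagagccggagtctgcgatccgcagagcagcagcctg
These letters were absent from the *Gbe1* window, occurred at 2 places in that of *Hk2* and at 1 in that of *Ldhb*, and at 7 starting positions in that of *Ldha*, some of which overlap where CACGTG reads the same on both strands. The window of the other *Ldha* start, not shown, held 2 matches. Over the whole set, 30 of the 35 members with a promoter entry held a match in at least 1 window (*Slc2a3* had none to search). By window, 37 of 50 member promoters held one, 74%, against 43.8% of all 32851 promoters of the same length, and the median GC content was 61% for the members and 52.7% for all. A match is a string of letters and not a site of binding.

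Detection limited what could be seen in the small oocytes. An LCM library held 15149564 to 29205503 counts and an MII library 7334817 to 9978830. A count of 0 allows up to 3 reads, which came to 0.103 to 0.198 CPM (counts scaled to a common library total) for LCM and 0.301 to 0.409 CPM for MII. These limits cover counting error only. Although sequenced more deeply, the LCM libraries held fewer genes above 3 reads (4842 to 11710) than the MII libraries (13238 to 15488). Of the 36 members, 18 to 34 were above 3 reads in an LCM library and 29 to 31 in an MII library. Whether reads were counted by strand is not given in the sources used here, so for the 15 members with a gene on the opposite strand, *Pfkp* (*Pitrm1*), *Gys1* (*Ruvbl2*) and *G6pdx* (*Ikbkg*) among them, reads of the pair cannot be told apart. *Eno1*, *Pgam1* and *Ldha* have near copies, to which 1539, 862 and 51 reads were assigned over all libraries beside 18547, 27817 and 2240 for the members.

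Members appeared in one LCM library and vanished from the next of the same group. Of those with at least 100 reads in 1 library of a group, 12 of 27 in primordial *in vivo*, 8 of 24 in primordial *in vitro*, 15 of 28 in primary *in vivo* and 4 of 31 in primary *in vitro* oocytes had 3 reads or fewer in another library of that group. In MII oocytes this happened for 0 of 22 *in vivo* and 0 of 23 *in vitro*. The same drop-out affected 29% to 60.1% of all genes at that level in the LCM groups and 0.432% to 0.864% in the MII groups. The typical variation between replicate libraries, the biological coefficient of variation in edgeR, was 2.02 in the LCM fit and 0.726 in the MII fit.

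**Figure D1:**
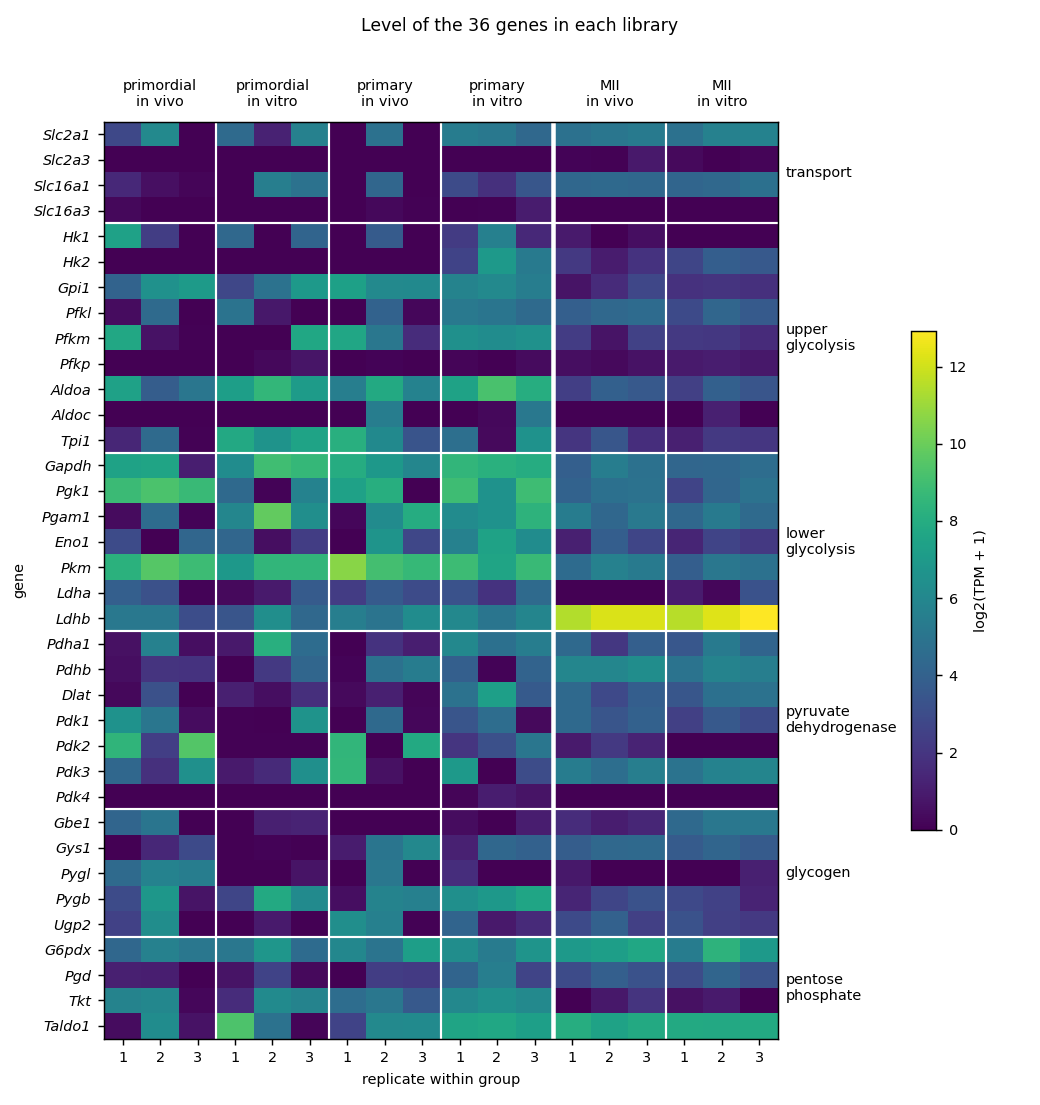
Heat map of log2(TPM + 1) for the 36 genes (rows, ordered by role) in the 18 libraries (columns, 3 replicates per group). The row of *Ldhb* is bright in the 6 MII libraries, and single genes switch between near 0 and high levels among replicates of the 4 LCM groups.

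The makeup of the member transcripts in MII oocytes was dominated by 1 gene. *Ldhb*, the heart-type lactate dehydrogenase subunit, reached 2752, 4763 and 4656 TPM in the *in vivo* and 3001, 5119 and 7825 TPM in the *in vitro* libraries. Among the 28252 genes it stood between the 12th and the 44th place in all 6 libraries, and it made up 83.5% of the mean summed member TPM *in vivo* and 86.9% *in vitro*. Next came 2 genes of the pentose phosphate pathway: *Taldo1*, transaldolase, at 224 ± 49.5 TPM *in vivo* and 229 ± 3.17 *in vitro* (SD, n = 3), and *G6pdx*, glucose-6-phosphate dehydrogenase and the entry enzyme of the pathway, at 162 ± 43.9 and 165 ± 148 TPM.

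The LCM libraries had another order, which cannot be compared by test. *Pkm*, the pyruvate kinase of non-hepatic tissues, was the top member by mean TPM in 3 of the 4 groups and followed *Pgam1* and *Gapdh* in primordial *in vitro* oocytes, with levels from 282 ± 144 (primordial *in vitro*) to 833 ± 643 (primary *in vivo*). *Pgk1*, *Gapdh*, *Aldoa* and *Pgam1*, enzymes of the trunk of glycolysis, were also among the first 7 in at least 1 group. So were genes outside that trunk, among them *Pdk2*, which inhibits pyruvate dehydrogenase, at 357 ± 354 TPM in primordial and 199 ± 186 TPM in primary *in vivo* oocytes, and *Taldo1* at 222 ± 359 TPM in primordial *in vitro* oocytes (SD, n = 3). Others were *Pdk3* in primary *in vivo* (128 ± 222), *Pdha1* in primordial *in vitro* (103 ± 158) and *Pygb* in primary *in vitro* oocytes (133 ± 56.8). *Ldhb* lay between 7.26 and 81.6 TPM over the 12 LCM libraries.

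**Figure D2:**
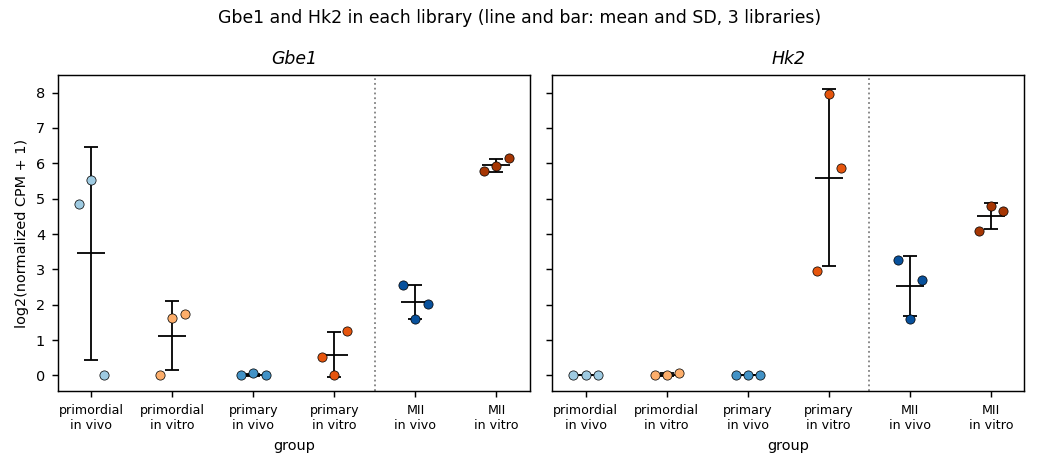
Normalized CPM of *Gbe1* and *Hk2* in each library on a log2(CPM + 1) axis, with the mean and SD of the 3 libraries of a group; the dotted line separates LCM from MII libraries. In MII oocytes the *in vitro* points lie above all *in vivo* points for both genes, and *Hk2* is at or near 0 in every LCM group except primary *in vitro*.

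Among glycogen genes in MII oocytes, *Gbe1*, the branching enzyme that introduces the branch points of the polymer, differed most between the groups. By mean TPM it led these genes only *in vitro* (29.9), while *in vivo* it stood at 1.63 and *Gys1* led at 17.8. Its counts, scaled to CPM with TMM factors (trimmed mean of M values), were 4.9, 2.04 and 3.09 *in vivo* and 53.7, 60 and 69.7 *in vitro*, from 41, 17 and 30 and from 463, 635 and 622 reads. All *in vitro* libraries were far above all *in vivo* ones, 18.2-fold in the edgeR fit (log2 fold change 4.19, SE 0.48), and by TPM the gene moved from between the 9958th and the 12036th place among all genes to between the 3235th and the 3747th.

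The other glycogen genes overlapped between the groups. *Gys1*, glycogen synthase, had 31.5 ± 4.51 CPM *in vivo* and 26.1 ± 3.95 *in vitro* (SD, n = 3), *Ugp2*, which makes the UDP-glucose that the synthase uses, 9.93 ± 6.04 and 7.11 ± 5.1, and *Pygb*, the brain-type glycogen phosphorylase, 9.11 ± 5.77 and 8.37 ± 6.23. *Pygl*, the liver-type phosphorylase, was read in 1 library of each group. Their log2 fold changes ran from -0.48 to 0.41.

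Hexokinase reads in MII oocytes came mostly from *Hk2*, the inducible isoform. *Hk2* had 8.61, 2.04 and 5.56 CPM *in vivo* and 16.1, 26.6 and 24.1 *in vitro*, again without overlap, a log2 fold change of 2.04 (SE 0.59) or 4.11-fold. *Hk1*, the housekeeping isoform, had 27, 0 and 12 reads *in vivo* and 0 in every *in vitro* library. The share of *Hk2* in the summed hexokinase TPM was 79.2%, 100% and 86.5% *in vivo* and 100% in each *in vitro* library.

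The rest of upper glycolysis showed 1 more gene without overlap. *Pfkp*, the platelet-type phosphofructokinase, had 2.27, 1.32 and 2.68 CPM *in vivo* and 6.03, 4.73 and 3.92 *in vitro* (log2 fold change 1.22, SE 0.82). *Pfkl*, the liver type, carried most phosphofructokinase TPM in both groups, 84.3% ± 10.2 and 73.9% ± 12.1 (SD, n = 3), and *Pfkp* under 10%, 1.33% to 2.15% *in vivo* and 4.67% to 8.5% *in vitro*. *Pfkl*, *Pfkm*, *Gpi1*, *Aldoa* and *Tpi1* overlapped between the groups, with log2 fold changes from -0.94 to 0.07, and *Aldoc* was read in 1 *in vitro* library only (14 reads).

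At the end of glycolysis, *Ldha*, the muscle-type lactate dehydrogenase subunit, had 0 reads in all 3 *in vivo* libraries and 14, 2 and 93 *in vitro*. Against the limit of 3 reads in each *in vivo* library, the *in vitro* mean, 4.08 CPM with an SD of 5.54 over 3 libraries, lay at least 11.9-fold higher. The library with 93 reads carried most of this, and without it the mean of 0.906 CPM was 2.65 times the limit. *Ldhb* nevertheless held at least 99.9% of lactate dehydrogenase TPM in every MII library, and its own CPM ranges overlapped (1835 to 2677 and 2308 to 4490). *Gapdh*, *Pgk1*, *Pgam1*, *Eno1* and *Pkm* overlapped as well, with log2 fold changes from -0.93 to -0.33.

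Among transporters, *Slc2a1*, the main basal glucose carrier, had 40.8, 41.5 and 45.5 CPM *in vivo* and 47.7, 59.4 and 67.5 *in vitro*, a log2 fold change of 0.45 (SE 0.34). The groups did not overlap in TMM-scaled CPM, but they did in TPM, where the lowest *in vitro* library (27.8) lay within the *in vivo* range of 27.4 to 37.3. *Slc16a1*, a carrier of pyruvate and lactate, overlapped at 32 ± 3.16 and 36.9 ± 7.27 CPM (SD, n = 3). *Slc2a3*, a high-affinity glucose carrier, reached 20 reads at most, and *Slc16a3*, a lactate exporter, was not read in MII oocytes.

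At the pyruvate dehydrogenase complex, which turns pyruvate into acetyl-CoA, *Pdhb* and *Pdk2* were lower in all *in vitro* libraries. *Pdhb*, a subunit of its first enzyme, had 99.5, 82.6 and 107 CPM *in vivo* and 56, 70.2 and 64.7 *in vitro* (log2 fold change -0.60, SE 0.32). *Pdk2*, 1 of 4 kinases that switch the complex off, had 10, 33 and 15 reads *in vivo* and 0 in every *in vitro* library, at least 6.92-fold lower, or 4.25-fold without the library of 33 reads. *Pdk1* overlapped at 66.4, 26.9 and 41.1 CPM *in vivo* and 17.3, 29.5 and 18.9 *in vitro*. Among the kinases *Pdk3* held 68.2% ± 4.12 of kinase TPM *in vivo* and 86% ± 3.92 *in vitro* (SD, n = 3), *Pdk1* 27.4% ± 3.81 and 14% ± 3.92, and *Pdk4* was not read. By counts not divided by length, the *Pdk3* shares were 43.6% and 67.3%. *Pdha1* and *Dlat*, further subunits of the complex, overlapped at log2 fold changes of 0.69 and 0.62.

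Pentose phosphate genes overlapped between the MII groups without exception. The log2 fold changes were -0.04 for *G6pdx*, 0.19 for *Pgd*, the second oxidative enzyme of the pathway, 0.09 for *Taldo1* and -1.20 for *Tkt*, transketolase, which had no more than 70 reads in any MII library. In *G6pdx* the *in vitro* libraries spread from 64.5 to 338 CPM, around the *in vivo* range of 164 to 226.

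Counted over the set, 5 of the 34 members in the fit had higher CPM in every *in vitro* than in every *in vivo* MII library (*Slc2a1*, *Hk2*, *Pfkp*, *Ldha* and *Gbe1*) and 2 had lower (*Pdhb* and *Pdk2*), where 9.37% and 6.81% of all 17144 genes in it did. For *Ldha* 1 of the *in vitro* libraries, with 2 reads, was within the limit that 0 reads *in vivo* allow. The count past an adjusted p under 0.05 and a fold of 2 was 1 of 34 in edgeR (*Gbe1*), beside 0.35% of all genes, and 4 of 32 in DESeq2 (*Gbe1*, *Hk2*, *Ldha* and *Pdk2*), beside 2.54%. For *Gbe1* and *Hk2* these calls came with the choice of the set. The median log2 fold change was -0.04 over the members and 0.04 over all genes. *Slc16a3* and *Pdk4* were not tested, with under 10 counts over the 6 libraries.

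**Figure D3:**
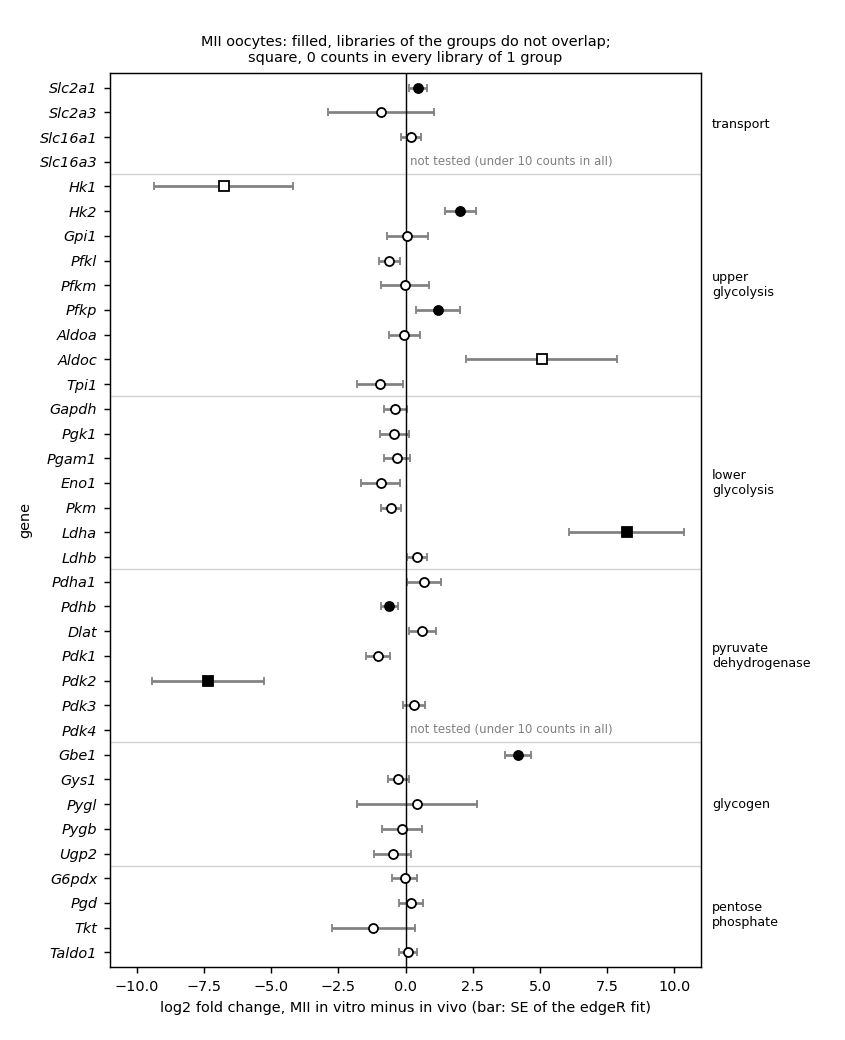
Log2 fold change of each member between *in vitro* and *in vivo* MII oocytes with the SE of the edgeR fit; filled symbols mark genes whose groups do not overlap and squares genes with 0 counts in every library of 1 group, for which the fitted value depends on the prior count. Most members sit near 0, and *Gbe1* at 4.19 and *Hk2* at 2.04 are the highest of those read in both groups.

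Markers of other cells were followed beside these values. Of 12 granulosa markers, 4 to 5 were above 3 reads in the *in vivo* and 6 to 8 in the *in vitro* MII libraries. Their summed levels were 98.2 to 110 and 85.9 to 147 TPM. Among the 12, *Foxl2*, *Fst* and *Amhr2* were at 0 in all 6. Most of the sum came from *Cdh2* (33.6 to 84.5 TPM) and *Cyp19a1* (17.5 to 64.7 TPM), and *Nr5a2* and *Kitl* were also read in all 6. The inhibin subunits were read *in vitro* and not *in vivo*: *Inhba* had 0 reads in each *in vivo* library and 23, 15 and 51 *in vitro*, and *Inha* 0 in each and 14, 14 and 0. *Fshr* had 0, 0 and 23 reads *in vivo* and 11, 47 and 20 *in vitro*, and *Amh* and *Hsd17b1* were read in 1 *in vitro* library each, with 2 and 6 reads. The 4 cumulus expansion genes found of 6 listed summed to at most 2.32 TPM, the 8 stroma and theca genes to 1.3 to 5.02 TPM and the 7 blood genes to at most 12.4 TPM. Oocyte markers above 3 reads numbered 12 to 13 of 13 in each MII library and 10 to 13 in each LCM library. Their sums were 11400 to 21700 TPM in the MII libraries and 325 to 1970 TPM in the LCM libraries. Stroma and theca sums in the LCM libraries ran from 195 to 10300 TPM, above the oocyte sum in some libraries and below it in others. The part of other cells in the MII values was not tested.

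The remaining genes of the same pathways gave a wider view. From a list of 92 such genes, 84 were in the files, and 71 were tested in MII oocytes. None was called by edgeR and none of 57 by DESeq2, and 7 had an unadjusted p under 0.05 in edgeR, 3 higher and 4 lower *in vitro*, 9.86% against 10.2% of all genes. Their median log2 fold change was 0.28, beside 0.04 for all genes.

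Turning to the follicle stages, the question was whether culture changed the same genes in small oocytes. The rule that chose the genes did not use these libraries, but the members were chosen with earlier results of these data known. In primordial follicle oocytes 0 of 35 members tested were called by edgeR, beside 0.0326% of all 15317 genes. At an unadjusted p under 0.05 there were 2 (*Pfkp* higher, *Pdk2* lower), 5.71%, against 11.7% of all genes, and DESeq2 called 3 of 30 (*Pgam1* higher, *Pdk2* and *Gys1* lower), against 9.3%. The median log2 fold change was 0.03 over the members and 0 over all genes. *Slc2a3*, the only member not tested, had 0 reads in the 12 LCM libraries.

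*Pdk2* came nearest to a call in primordial follicle oocytes. It had 330, 3.6 and 866 CPM *in vivo* and 0.0719, 0.037 and 0.0484 *in vitro*, where each library held 1 read. Every *in vitro* library was lower, but 1 of the *in vivo* libraries was also far below the other 2, and the log2 fold change of -12.78 (SE 3.51) had an adjusted p = 0.315 in edgeR and 2.15e-06 in DESeq2. *Gm11513*, annotated on the other strand of *Pdk2*, had 0 reads in all libraries.

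The next smallest p-values belonged to a phosphofructokinase and a phosphorylase. *Pfkp* had 0 reads in the 3 *in vivo* libraries and 0, 0.961 and 2.76 CPM *in vitro*, a mean at least 9.38-fold above the limit of 3 reads (adjusted p = 0.363, edgeR) and 3.64-fold without the highest library. *Pygl* had 43.2, 93.5 and 114 CPM *in vivo* and 0, 0 and 1.35 *in vitro*, without overlap (log2 fold change -7.51, SE 3.95, adjusted p = 0.435). Of the 5 glycogen genes, 4 (*Pygl*, *Gys1*, *Ugp2* and *Gbe1*) had negative log2 fold changes here, from -7.51 to -4.03, and *Pygb* had 1.61; none passed the edgeR test.

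*Gbe1* itself was read unevenly in the small oocytes. Its counts were 654, 1210 and 0 in primordial *in vivo*, 0, 56 and 49 in primordial *in vitro*, 0, 1 and 0 in primary *in vivo* and 13, 0 and 45 in primary *in vitro* oocytes. The groups overlapped at each stage, and the log2 fold changes of *in vitro* against *in vivo* were -4.03 (SE 3.58) at the primordial and 4.96 (SE 3.69) at the primary stage, against 4.19 in MII oocytes.

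Other members without overlap at the primordial stage were *Tpi1* and *Pgam1*, higher *in vitro*, and *Pgk1*, lower. *Tpi1*, triosephosphate isomerase, had 150 ± 62.3 CPM *in vitro* and 5.6 ± 8.57 *in vivo* (SD, n = 3). For *Pgam1*, phosphoglycerate mutase, the values were 205 ± 282 and 3.7 ± 6.21, and for *Pgk1*, phosphoglycerate kinase, 17.2 ± 18.1 and 347 ± 43.3. In all, 2 of 35 members were higher and 3 lower without overlap, beside 2.04% and 4.55% of all genes.

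In primary follicle oocytes 0 of 35 members were called by edgeR, as were 0% of all genes. At an unadjusted p under 0.05 there were 2, *Hk2* and *Pdk4*, both higher *in vitro*, 5.71% against 9.66% of all genes, and DESeq2 called *Hk2* and *Dlat*, 2 of 29, against 3.11%. The median log2 fold change was 0.71 over the members and 0.44 over all genes. That all-gene value moved with the scaling, to 0.17 with DESeq2 size factors and 0.72 with library size alone, and the members split into 21 higher and 14 lower with TMM, 19 and 16 with size factors, and 25 and 10 with library size alone.

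*Hk2* had the smallest p at this stage. It had 0 reads in the 3 primary *in vivo* libraries and 210, 5752 and 1843 in the *in vitro* ones, or 6.83, 248 and 57.2 CPM, a mean at least 681-fold above the limit of 3 reads, and 209-fold without the library of 5752 reads. The adjusted p was 0.44 in edgeR, with a log2 fold change of 14.23 (SE 4.97), and 0.000992 in DESeq2, so it was called by DESeq2 and not by edgeR. In primordial follicle oocytes it had 0 reads *in vivo* and 0, 0 and 1 *in vitro*. *Hk1* was read in 3 primary *in vitro* libraries and 1 *in vivo* library above 3 reads, and the share of *Hk2* in hexokinase TPM was 57%, 72.2% and 95.5% *in vitro* and 0% in that *in vivo* library.

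*Pdk4*, a kinase known for its response to fasting and fatty acids, was read in this group and no other: 3, 28 and 17 reads in primary *in vitro* oocytes, at least 4-fold above the limit for the *in vivo* group (adjusted p = 0.512, edgeR). *Dlat*, the acetyltransferase of the pyruvate dehydrogenase complex, had 0.467, 1.77 and 0.163 CPM *in vivo* and 30.7, 252 and 14 *in vitro* (log2 fold change 6.94, SE 3.86, adjusted p = 0.548 in edgeR and 0.0265 in DESeq2). *Dlat* was higher in every *in vitro* library, and *Pdk4* in 2 of 3 beyond the limit that 0 reads allow. Without the library of 28 reads the *Pdk4* mean was 2.04 times that limit.

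Without overlap, 9 of 35 members were higher in primary *in vitro* oocytes and 1 was lower, beside 8.74% and 1.25% of all genes. The higher ones were *Hk2*, *Pfkl*, *Pdha1*, *Dlat*, *Pdk4*, *Pygb*, *Pgd*, *Tkt* and *Taldo1*, and the lower one was *Pkm* (456 ± 135 CPM *in vitro* and 1510 ± 1460 *in vivo*; SD, n = 3). Of the summed TPM of the 6 roles, that of the pentose phosphate genes did not overlap (333 to 384 *in vitro* and 91.1 to 238 *in vivo*), although *G6pdx* itself did, and the sums of the other 5 roles overlapped, such as glycogen at 107 to 214 and 85.5 to 168.

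Markers moved at this stage too. The 12 granulosa markers summed to 698 to 2430 TPM in the 3 primary *in vitro* libraries and to 376 to 592 TPM *in vivo*, with 7 to 11 and 4 to 9 of them above 3 reads; *Foxl2* was read in all 6, *Amh* had 0, 12 and 1 reads *in vivo* and 40, 11 and 300 *in vitro*, and *Fshr* was at 0 in all 6. The 7 blood markers ran the other way, 0.502 to 174 TPM *in vitro* and 1160 to 7510 TPM *in vivo*, and the stroma and theca list reached 10300 TPM in 1 *in vivo* library against 577 to 1510 TPM *in vitro*. Oocyte markers summed to 910, 506 and 579 TPM in the primary *in vitro* libraries and to 779, 588 and 1540 TPM *in vivo*. The granulosa sums of the same libraries were 1180, 698 and 2430 TPM *in vitro* and 551, 592 and 376 TPM *in vivo*. Every *in vitro* library thus held more granulosa than oocyte marker TPM, and *in vivo* only replicate 2 did, narrowly. Also, 8880 to 11710 genes were above 3 reads *in vitro* and 4842 to 10283 *in vivo*. The part of these differences in the member values was not tested. At the primordial stage the granulosa sums overlapped, 24.3 to 709 TPM *in vivo* and 22.6 to 1020 TPM *in vitro*. The stroma and theca sums there were 398 to 1190 TPM *in vivo* and 195 to 2930 TPM *in vitro*. Oocyte markers summed to 389 to 832 and 325 to 1970 TPM in the same libraries. The part of other cells in the primordial member values was not tested.

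**Figure D4:**
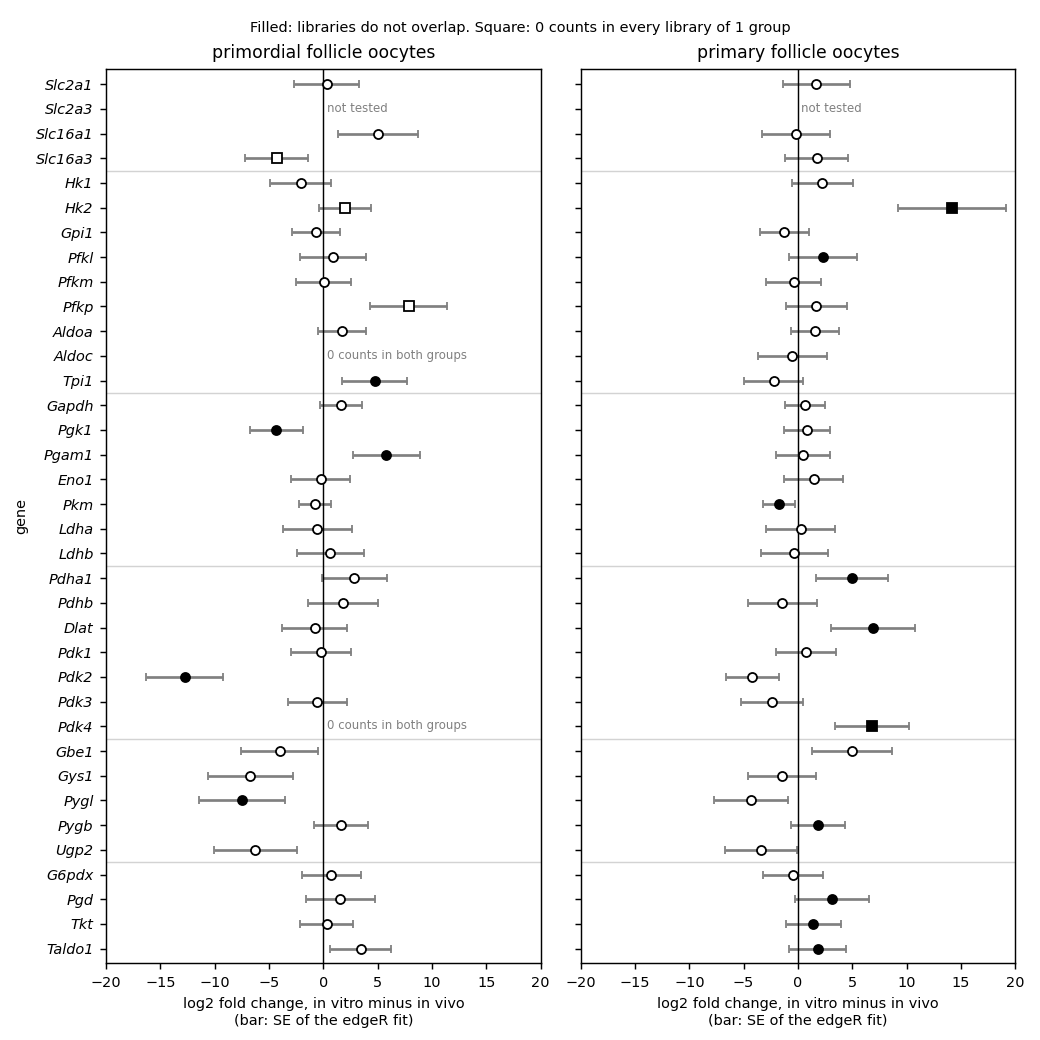
Log2 fold change of each member between *in vitro* and *in vivo* oocytes of primordial (left) and primary (right) follicles with the SE of the edgeR fit; filled symbols mark genes whose libraries do not overlap and squares genes with 0 counts in every library of 1 group. The error bars are wide, and *Pdk2* at -12.78 on the left and *Hk2* at 14.23 on the right lie farthest from 0.

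The 2 culture effects were compared by the difference between them, primary minus primordial, which shares all 12 libraries with the tests above. No member of 35 was called by edgeR, beside 0.104% of all genes, and 1 (*Pdk2*) had an unadjusted p under 0.05, 2.86% against 11.5%. DESeq2 called 0 of 30, against 5.91%. The smallest p-values were those of *Pdk2* (difference of log2 fold changes 8.58, SE 3.51, adjusted p = 0.304 in edgeR), *Gbe1* (8.99, SE 5.13, adjusted p = 0.514) and *Tpi1* (-6.97, SE 4.00, adjusted p = 0.518). *Pdk2* had 473, 0 and 200.5 CPM in primary *in vivo* and 2.08, 8.29 and 26.2 in primary *in vitro* libraries, which overlapped. *Tpi1* had 1.29, 15.5 and 0.0522 CPM *in vivo* and 209, 84.9 and 156 *in vitro* at the primordial stage, and 315, 56.2 and 7.23 *in vivo* and 15.9, 0.216 and 64.5 *in vitro* at the primary stage. Its order of the groups was thus clear at the primordial stage and mixed at the primary stage. For *Hk2*, with 0 reads in both *in vivo* groups, edgeR gave no usable SE of the difference, and the adjusted p was 0.0972 in DESeq2.

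Growth from the primordial to the primary stage was also compared, within each origin, with libraries shared with the culture comparisons. *In vivo*, 0 of 35 members were called by edgeR, beside 0.0522% of all genes, 2 had an unadjusted p under 0.05 (5.71% against 11.2%), and DESeq2 called 1 of 30, *Gbe1*, against 6.23%. *Aldoc*, the brain-type aldolase, had 0 reads in the 3 primordial libraries and 0, 41.2 and 0 CPM in the primary ones (adjusted p = 0.38, edgeR), so 1 library gave the difference, and without it the gene had 0 reads in both groups. *Gbe1* had 28, 44.9 and 0 CPM in the primordial and 0, 0.0401 and 0 in the primary libraries (log2 fold change -10.27, SE 4.68, adjusted p = 0.397). For *Pfkp* the values were 0 in all primordial and 0.0584, 0.361 and 0 CPM in the primary libraries. Without overlap, 0 members were higher and 1, *Pgk1*, lower in primary oocytes, beside 2.36% and 4.02% of all genes.

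*In vitro*, the same comparison again gave 0 of 35 calls by edgeR, as for 0% of all genes. An unadjusted p under 0.05 was found for 5, all higher in primary oocytes (*Pdk2*, *Hk2*, *Aldoc*, *Gys1* and *Pdk4*), 14.3% against 10.9%, and DESeq2 called *Hk2*, *Gys1* and *Pdk2*, 3 of 30, against 5.15%. *Pdk2* had 0.0719, 0.037 and 0.0484 CPM in the primordial and 2.08, 8.29 and 26.2 in the primary libraries (log2 fold change 7.74, SE 2.92, adjusted p = 0.384, edgeR). *Hk2* had 0, 0 and 0.0484 against 6.83, 248 and 57.2 CPM, and *Aldoc* 0 in all against 0, 0.216 and 28.4. Without overlap, 7 were higher (*Hk2*, *Pgk1*, *Eno1*, *Dlat*, *Pdk2*, *Pdk4* and *Gys1*) and 1, *Tpi1*, lower, beside 9.87% and 1.34% of all genes. Here the split of 25 higher and 10 lower became 19 and 16 with DESeq2 size factors.

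The isozyme makeup of the small oocytes varied between replicates. In primordial *in vivo* oocytes *Pfkm*, the muscle-type phosphofructokinase, held 99.8% of phosphofructokinase TPM in 1 library and 2.58% in another. Primary *in vitro* libraries were closer to each other, with 71.4%, 71.4% and 81.3%. For the pyruvate dehydrogenase kinases, *Pdk2* held 75.7%, 11.1% and 88.8% in primordial *in vivo* and 6.49%, 1.88% and 0.0265% in primordial *in vitro* libraries. *Pygl* held 31.4% to 98.6% of phosphorylase TPM in primordial *in vivo* libraries and at most 0.87% *in vitro*. *Ldhb* held the larger part of lactate dehydrogenase TPM in each of the 12 LCM libraries, 61.3% to 98.9%, but by counts not divided by length its share in 1 primordial *in vitro* library was 42.9%, against 57.1% for *Ldha*.

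**Figure D5:**
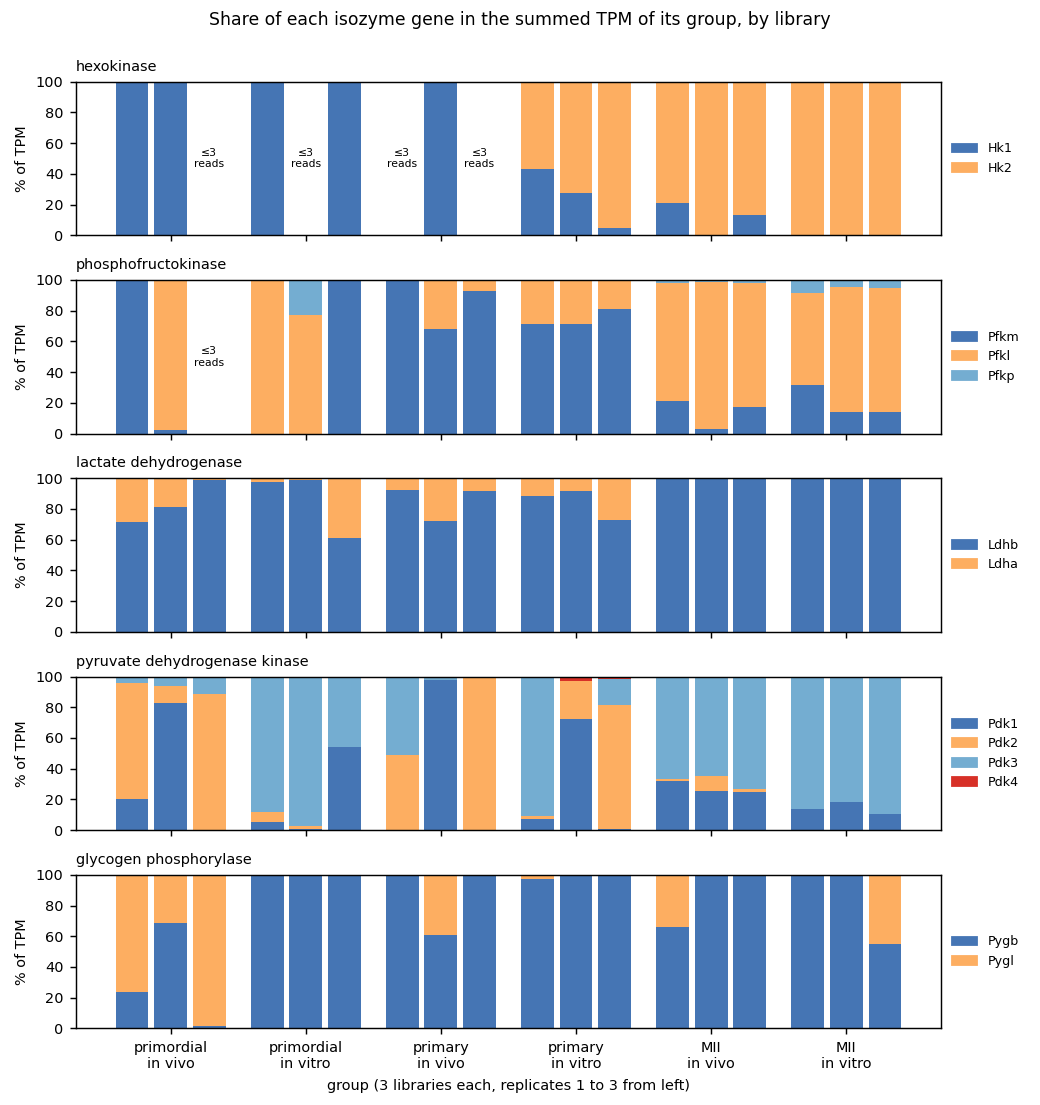
Stacked bars of the share of each isozyme gene in the summed TPM of its enzyme, in percent, for the 18 libraries; bars are left out where the enzyme had 3 reads or fewer. *Hk2* takes part of the hexokinase bar in primary *in vitro* libraries and most or all of it in MII libraries. The lactate dehydrogenase bar is *Ldhb* throughout MII.

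The culture differences were also grouped by role. At the primordial stage the 4 pentose phosphate genes had positive log2 fold changes, from 0.31 (*Tkt*) to 3.44 (*Taldo1*), the 7 genes of the pyruvate dehydrogenase step ran from -12.78 (*Pdk2*) to 2.85 (*Pdha1*), the 7 of lower glycolysis from -4.33 (*Pgk1*) to 5.79 (*Pgam1*), the 9 of upper glycolysis from -2.07 (*Hk1*) to 7.85 (*Pfkp*) and the 3 transporters from -4.29 (*Slc16a3*) to 5.04 (*Slc16a1*), beside the glycogen genes given above. At the primary stage 3 of 4 pentose phosphate genes were positive, from -0.44 (*G6pdx*) to 3.16 (*Pgd*), lower glycolysis ran from -1.72 (*Pkm*) to 1.45 (*Eno1*), the pyruvate dehydrogenase step from -4.20 (*Pdk2*) to 6.94 (*Dlat*), the glycogen genes from -4.35 (*Pygl*) to 4.96 (*Gbe1*), the 3 transporters from -0.18 (*Slc16a1*) to 1.72 (*Slc16a3*) and upper glycolysis from -2.23 (*Tpi1*) to 14.23 (*Hk2*). None of these passed the edgeR test.

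Among the wider pathway list, 64 genes were tested in the LCM fit and edgeR called 0 in each of the 5 comparisons. In primordial follicle oocytes 12 of the 64 had an unadjusted p under 0.05 (3 higher and 9 lower *in vitro*, 18.8%, beside the 11.7% of all genes given above), and DESeq2 called 8 of 41, beside 9.3%. In primary follicle oocytes 3 of the 64 had such a p (4.69% against 9.66%) and DESeq2 called 1 of 38, beside 3.11%. For the difference between the effects these were 4 (6.25% against 11.5%) and 2 of 43, beside 5.91%. Between the stages they were 7 (10.9% against 11.2%) and 3 of 41, beside 6.23%, *in vivo*, and 7 (10.9% against 10.9%) and 1 of 41, beside 5.15%, *in vitro*.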

How the data were processed

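The 18 libraries were processed by the authors with Trim Galore 0.4.1, TopHat2 on mm10 and featureCounts; strandedness and the treatment of multiply mapped reads are not given in the sources used here. The deposited count table holds raw counts for 53715 Ensembl genes, and the deposited TPM table holds TPM values for 28252 of them, which recomputation showed to be counts over a fixed length, rescaled. TPM was used for levels and shares between genes, and counts for tests.

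Counts were scaled by TMM and fitted with edgeR 4.0.16 (robust quasi-likelihood test, genes with at least 10 counts in the fit, R 4.3.3), with 12 LCM libraries and 6 MII libraries in separate fits. Calls needed a fold of 2 and an adjusted p under 0.05 (Benjamini-Hochberg, over all genes tested). Groups not overlapping means that every TMM-scaled CPM of one lies above all of the other. Gene places and strands came from GENCODE on GRCm38, which matched 36 of 36 members, and promoters from RefSeq. One further row with the symbol *Aldoa*, of 4 counts, was not used.

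The members, the pathway list and the marker lists were chosen with earlier results of these data known. Values per library were given for *Gbe1*, *Hk2*, members called or without overlap in MII oocytes, and the 3 members with the smallest p in each LCM comparison. *Gys1*, *Pgam1*, *Pgk1* and *Pkm* were described further after their values were seen. Alternatives were other scalings, filters, DESeq2 1.42.0, limma 3.58.1 on log2(TPM + 1) and log2(TPM + 0.1), a replicate block, other sets of libraries and leaving out each library. Lower bounds of folds without the highest library were added after seeing the data.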

Additional observations from a re-analysis of the deposited data

How the results depend on the processing

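With DESeq2 in place of edgeR, the members called numbered 3 at the primordial and 2 at the primary stage, 1 and 3 between stages *in vivo* and *in vitro*, and 4 in MII oocytes, and the wider pathway genes 8, 1, 3 and 1 in the LCM comparisons in that order and 2 for the difference between effects; the cause was not tested. Without a filter on low counts, MII calls were 2 among members (*Gbe1* and *Ldha*) and 263 among all genes, against 60. With all 18 libraries in 1 fit, both were 0. Leaving out each library in turn kept the members called at 0 in every LCM comparison and at 1 in MII oocytes. The MII log2 fold change of *Gbe1*, which the choice of the genes had used, ran from 3.54 to 4.56 and is no support for it. The 412 alternative log2 fold changes covered members picked for a small p or for groups without overlap, *Gbe1* and *Hk2* among them. Of the values, 401 stayed on their side of the threshold, 10 passed it newly, 1 lost it and 0 reversed. *Aldoc* between stages *in vivo* fell to 0 without primary *in vivo* replicate 2. Picking members in this way favoured a kept direction, so the 0 reversals are no support. Of 137 alternative isozyme shares, 5, by counts without length, moved by more than 1 SD. Shares with 1 library left out could not move that far, because the SD came from the same libraries. The 132 that stayed within 1 SD are therefore no sign of stability. Within a stage, deviations of same-numbered *in vivo* and *in vitro* libraries had correlations from -0.028 to 0.012, and those of differently numbered ones from -0.031 to 0.032. Values this near to 0 do not show whether samples were paired, given the wide spread between LCM replicates. Pairing of primordial with primary libraries of an origin was not examined. A replicate block gave 0 members called in the LCM comparisons, 1 in MII oocytes (*Gbe1*, 4.26) and 85 MII calls among all genes. Over all genes, the LCM calls of 5, 0, 16, 8 and 0 (primordial, primary, difference, stages *in vivo* and *in vitro*) became 812, 254, 554, 557 and 450 with DESeq2 and 0 throughout with limma on TPM. The spread between replicates was wider in the LCM fit (biological coefficient of variation 2.02) than in the MII fit (0.726), although the LCM libraries were deeper.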
